A study of Mus musculus with 4 samples.

Results

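Oxidative phosphorylation (OXPHOS) genes were followed in RNA sequencing libraries of sorted regulatory T cells (Treg cells), the CD4 T cells that restrain immune responses. The genes were chosen by name, as the symbols of the complex I (Nduf), II (Sdh), III (Uqcr and Cyc1), IV (Cox4 to Cox8) and V (Atp5) families that had at least 5 reads in each library. The name rule matched 91 of 23284 symbols, and 82 passed the read minimum. The series compared epididymal white adipose tissue (eWAT) with spleen in C57BL/6 mice aged 12 to 13 months, for which the design text names spleen Treg cells as the controls. There was 1 library for each of the 4 groups, which were 2KR eWAT, WT eWAT, 2KR spleen and WT spleen. 2KR stands for PPARg-2KR mice, which carry a form of the nuclear receptor PPARG with 2 lysines replaced by arginine. The labels do not say which cells of the mouse carry it, whether animals were pooled, or how the Treg cells were gated. Counts per library came to 8315569 reads in 2KR eWAT, 11186660 in WT eWAT, 15993889 in 2KR spleen and 13250590 in WT spleen.

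In the inner membrane of mitochondria, complex I takes electrons from NADH and complex II takes them from succinate. Complex III passes them through cytochrome c to complex IV, which reduces oxygen, and complex V uses the resulting proton gradient to make ATP. Most subunits are encoded in the nucleus and a few in mitochondrial DNA, so that each complex except II is assembled from both sources. Treg cells are known for leaning on mitochondrial respiration and fatty acid oxidation, and Treg cells of visceral fat are known for PPARG expression and lipid uptake. None of the 13 mitochondrial DNA-encoded subunits is among the symbols of the files, so all values here are of nuclear genes.

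The promoters of many respiratory genes are known to bind NRF1, ETS family factors such as GABPA, and YY1. A RefSeq promoter (GRCm38.p6, 250 bases before to 50 after the start) was matched to 69 of the 82 genes. The letters GCGCATGC (NRF1 core) were found on either strand in 11 of these 69 genes (15.9%), against 3.94% of 17492 protein-coding genes with promoters of the same length. The letters CCGGAAG (ETS core) were found in 17 (24.6%) against 12.9%, and AAGATGGC (YY1 core) in 11 (15.9%) against 3.57%. At least 1 of the 3 was present in 33 of 69 genes (47.8%), against 18.7% of all genes, and at least 2 in 6 genes (8.70%), against 1.72%. Of the 11 genes with the YY1 letters, 7 belong to complex I, as do 36 of all 82 genes, and a link was not tested. Matches are of letters only and do not show binding. The 6 promoters with at least 2 of the motifs are given here to show how the sites lie around the start, together with Ndufa3, the complex I subunit gene with the highest FPKM (fragments per kilobase and per 1e+06 fragments) among those with a motif. Motif letters on either strand are in capitals, each sequence runs 5′ to 3′ along the gene, and overlapping NRF1 matches on both strands form 1 run.
Ndufa3, YY1, chr7:3617123-3617422, plus strand: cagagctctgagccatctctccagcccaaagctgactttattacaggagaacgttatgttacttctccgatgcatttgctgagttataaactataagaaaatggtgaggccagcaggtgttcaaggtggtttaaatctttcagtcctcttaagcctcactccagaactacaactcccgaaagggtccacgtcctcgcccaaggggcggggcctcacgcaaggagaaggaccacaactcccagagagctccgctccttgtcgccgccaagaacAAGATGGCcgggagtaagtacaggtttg
Sdhb, NRF1 and ETS, chr4:140961021-140961320, plus strand: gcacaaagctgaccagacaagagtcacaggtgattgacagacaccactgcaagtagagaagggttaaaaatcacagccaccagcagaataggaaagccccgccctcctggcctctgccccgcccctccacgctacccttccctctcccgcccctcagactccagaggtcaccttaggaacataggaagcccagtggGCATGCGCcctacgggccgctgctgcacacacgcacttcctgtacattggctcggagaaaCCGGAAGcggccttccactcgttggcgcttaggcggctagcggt
Uqcr11, ETS and NRF1, chr10:80406772-80407071, minus strand: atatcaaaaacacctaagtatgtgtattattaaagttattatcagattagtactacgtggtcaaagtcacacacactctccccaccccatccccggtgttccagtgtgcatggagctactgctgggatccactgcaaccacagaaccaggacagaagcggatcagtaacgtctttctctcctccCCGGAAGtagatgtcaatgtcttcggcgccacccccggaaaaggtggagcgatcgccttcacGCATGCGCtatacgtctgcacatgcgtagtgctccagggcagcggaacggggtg
Cox6a1, NRF1 and ETS, chr5:115348909-115349208, minus strand: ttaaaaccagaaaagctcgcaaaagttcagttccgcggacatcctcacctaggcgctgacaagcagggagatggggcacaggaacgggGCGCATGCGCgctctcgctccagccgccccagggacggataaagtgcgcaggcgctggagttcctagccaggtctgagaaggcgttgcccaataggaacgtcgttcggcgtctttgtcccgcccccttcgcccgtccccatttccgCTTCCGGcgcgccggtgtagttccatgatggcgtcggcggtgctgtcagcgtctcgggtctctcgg
Atp5j, YY1 and ETS, chr16:84834927-84835226, minus strand: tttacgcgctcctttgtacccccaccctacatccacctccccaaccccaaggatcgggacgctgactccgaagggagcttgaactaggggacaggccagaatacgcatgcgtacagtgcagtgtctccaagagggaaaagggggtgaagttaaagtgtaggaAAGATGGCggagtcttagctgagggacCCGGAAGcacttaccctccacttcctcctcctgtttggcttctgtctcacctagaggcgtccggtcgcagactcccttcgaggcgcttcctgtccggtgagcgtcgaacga
Atp5k, NRF1 and ETS, chr5:108434350-108434649, minus strand: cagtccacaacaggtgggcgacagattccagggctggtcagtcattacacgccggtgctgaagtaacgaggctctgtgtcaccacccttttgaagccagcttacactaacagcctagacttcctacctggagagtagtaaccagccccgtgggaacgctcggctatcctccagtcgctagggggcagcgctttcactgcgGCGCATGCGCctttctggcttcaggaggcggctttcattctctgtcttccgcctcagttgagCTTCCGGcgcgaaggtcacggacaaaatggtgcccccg
Atp5l, NRF1 and ETS, chr9:44920693-44920992, minus strand: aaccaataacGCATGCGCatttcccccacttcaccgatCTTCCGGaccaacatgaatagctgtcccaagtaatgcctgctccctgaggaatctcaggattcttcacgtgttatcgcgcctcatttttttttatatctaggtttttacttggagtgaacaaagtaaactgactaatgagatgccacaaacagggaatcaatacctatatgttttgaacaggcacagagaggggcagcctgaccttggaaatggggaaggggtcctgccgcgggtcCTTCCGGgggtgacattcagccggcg

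OXPHOS genes were among the more abundant and shorter transcripts of these cells. Their median FPKM, taken over the means of the 4 libraries, was 154, against 5.94 for all 16488 genes tested, and their median longest transcript was 746.5 bases, against 2752. They took 0.824% of all reads in 2KR eWAT (95% exact interval 0.818 to 0.830) and 0.863% in WT eWAT (0.857 to 0.868), against 1.16% in 2KR spleen (1.16 to 1.17) and 1.34% in WT spleen (1.33 to 1.35). Both eWAT libraries were below both spleen libraries, and within each tissue the 2KR library was below the WT library. Intervals on reads cover counting error only. Levels of single genes are given as CPM, the reads of a gene per 1e+06 reads of its library, scaled by the trimmed mean of M-values (TMM). Per length, the median FPKM of the 82 genes was 116 in 2KR eWAT and 125 in WT eWAT, against 176 in 2KR spleen and 209 in WT spleen. Mean FPKM over the 4 libraries ran from 8.82 for Cox4nb to 859 for Atp5b. In bulk libraries, fewer cells that express a gene and less RNA of it per cell cannot be told apart.

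OXPHOS genes were lower in eWAT than in spleen Treg libraries across all 5 complexes. The 2 eWAT libraries were set against the 2 spleen libraries with the quasi-likelihood test of edgeR, and 65 of 82 genes were lower (Benjamini-Hochberg adjusted p under 0.05 over all genes tested), 0 were higher and 17 did not pass. Over all 16488 genes tested 23.2% were lower and 33.7% higher by the same call. The 33.7% is not a like share for the 0 higher. The minimum of 5 reads in each library kept genes read almost only in eWAT out of the 82. Such genes remained among all genes tested, where a call in them could only be a higher one. The median log2 fold change was -0.74, against 0.11 over all genes tested. In 77 of 82 genes both eWAT libraries lay below both spleen libraries, against 37.6% of tested genes, and 81 of 82 genes were below in both genotypes taken singly. The spread behind these p-values is that between single libraries of 2 genotypes, and the labels do not say how many animals stand behind each. Without the WT spleen library 10 of 82 genes were called lower, against 10.5% of all genes tested in that fit, and without 2KR spleen 43, against 12.0%. The median of the 82 genes was -0.65 and -0.93 in these fits.

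**Figure D1:**
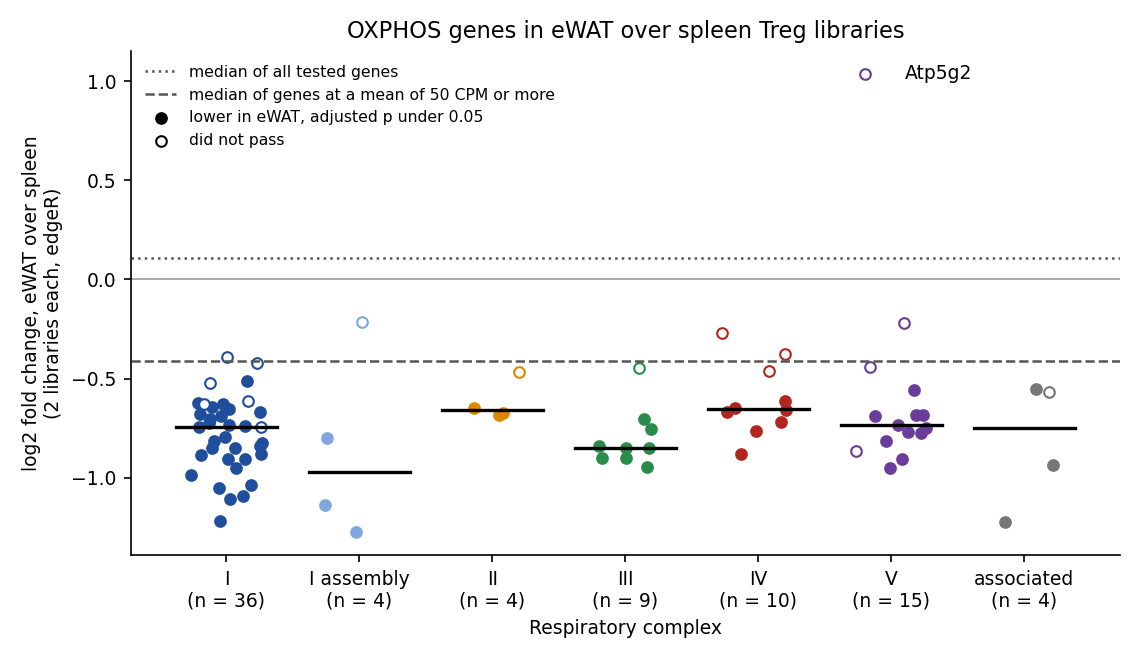
Each point is an OXPHOS gene, placed by respiratory complex along the x axis and by its log2 fold change of eWAT over spleen Treg libraries (2 libraries each) on the y axis, with complex medians as bars. Filled points passed the test; all but Atp5g2 lie below 0, and the complex medians lie between -0.65 and -0.97.

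Among all genes tested, abundance and transcript length moved with the tissue difference. Of 4819 genes at a mean of 50 CPM or more, 43.5% were lower in eWAT (median log2 fold change -0.41), and 53 of the 61 OXPHOS genes at that level were lower. Of 241 other genes at that level with a longest transcript under 1000 bases, 67.2% were lower (median -0.72), and 32 of the 37 OXPHOS genes of that kind were lower. The OXPHOS share is thus well above that of all genes and, for short genes, nearer to that of other short, abundant transcripts. At any level, 26 of the 30 OXPHOS genes of 1000 bases or more were lower (median -0.70). Of the 52 shorter ones 39 were lower (median -0.74). Other genes of 1000 bases or more at a mean of 50 CPM or more had a median of -0.39. The part of abundance and length in the result was not tested. Markers of other cells also moved with tissue. All 6 dendritic cell markers were higher in eWAT, with summed levels of 14048 CPM in 2KR eWAT and 7803 CPM in WT eWAT, against 643 CPM in 2KR spleen and 950.1 CPM in WT spleen. Cd74, H2-Aa and H2-Ab1, MHC class II presentation genes not limited to dendritic cells, carried most of these sums. Cd74 alone had 8267 and 4501 CPM in 2KR and WT eWAT. Flt3, Itgax and Clec9a had 44.6, 19.0 and 9.23 CPM in 2KR eWAT and 15.6, 10.3 and 2.40 CPM in WT eWAT. All 8 macrophage markers tested were higher too, with 1564 and 1254 CPM in 2KR and WT eWAT, against 82.6 and 119 CPM in 2KR and WT spleen. All 7 fibroblast markers were higher, with 224 and 530.2 CPM in 2KR and WT eWAT, against 4.13 and 7.51 CPM in 2KR and WT spleen. Some of these markers reached the test through their eWAT reads alone, so a call in them could only be a higher one. In 2KR and WT spleen Upk3b had 1 and 3 reads, Msln 1 and 6, and Pdgfra 4 and 8. Fcgr1, a macrophage marker, had 0 and 7 there, and Itgax 4 and 7. The 6 T cell and Treg markers summed to 4580 and 6032 CPM in 2KR and WT eWAT, against 5584 and 6153 CPM in 2KR and WT spleen. Some T cell genes moved the same way as the OXPHOS genes, and of the 6 markers 3 were lower in eWAT (Cd3d -1.43, Cd3e -1.03 and Cd4 -0.67), 1 was higher (Ctla4) and 2 did not pass (median -0.57). Ctla4, an inhibitory receptor, had 1872 and 2420 CPM in 2KR and WT eWAT, against 749 and 775 CPM in 2KR and WT spleen. Without it the other 5 summed to 2708 and 3613 CPM in 2KR and WT eWAT, against 4835 and 5378 CPM in 2KR and WT spleen. Foxp3 had 801 and 1160 CPM in 2KR and WT eWAT and 1298 and 1408 CPM in 2KR and WT spleen, so this defining Treg gene was read in every library. The part of other cells in the OXPHOS values was not tested.

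Complex I, the NADH dehydrogenase, had 30 of 36 subunit genes lower in eWAT, with a median log2 fold change of -0.74 and a range of -1.22 to -0.39. Its 7 core subunits, which together hold the flavin and the iron-sulfur clusters, were all lower (median -0.70). Among them Ndufs8 had 76.2 CPM in 2KR eWAT and 91.4 CPM in WT eWAT, against 142 CPM in 2KR spleen and 182 CPM in WT spleen, a log2 fold change of -0.95 ± 0.20 (SE, edgeR adjusted p = 0.00192). Ndufv1, the flavin and NADH-binding subunit, had the smallest change of the core at -0.51 ± 0.19 (edgeR adjusted p = 0.0372), with 87.7 and 109.7 CPM in 2KR and WT eWAT and 134 and 148 CPM in 2KR and WT spleen. Of the 29 accessory subunits 23 were lower.

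Ndufa4 fell furthest among the genes named as complex I subunits, assembly factors aside. Its protein, named with complex I, is now known as a subunit of complex IV, and moving it there left the complex I median at -0.74 and the complex IV median at -0.66. Ndufa4 (chr6:11850373-11857446, mm9) had 92.2 CPM in 2KR eWAT and 78.5 CPM in WT eWAT, against 173 CPM in 2KR spleen and 225 CPM in WT spleen (log2 fold change -1.22 ± 0.21, edgeR adjusted p = 0.000428). The groups did not overlap, and WT eWAT was the lowest library and WT spleen the highest. Ndufa5, an accessory subunit of the peripheral arm, followed at -1.11 ± 0.21 (edgeR adjusted p = 0.00103), with 27.6 and 36.1 CPM in 2KR and WT eWAT against 60.7 and 77.0 CPM in 2KR and WT spleen. Ndufa3, whose promoter holds the YY1 letters, had 45.4 and 66.3 CPM in 2KR and WT eWAT against 98.1 and 132 CPM in 2KR and WT spleen (-1.03 ± 0.22, edgeR adjusted p = 0.00206). At the other end Ndufa1, a small membrane-arm subunit, had 74.1 and 93.7 CPM in 2KR and WT eWAT against 92.7 and 128 CPM in 2KR and WT spleen. WT eWAT lay above 2KR spleen there, and the test was not passed (log2 fold change -0.39, edgeR adjusted p = 0.125). Ndufv3 did not pass either (-0.42, edgeR adjusted p = 0.0927).

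The 4 complex I assembly factors, which help to build the complex and are not part of it, had a median of -0.97, and 3 of them were lower. Ndufaf3 had 12.8 and 20.9 CPM in 2KR and WT eWAT, against 36.1 and 45.7 CPM in 2KR and WT spleen (log2 fold change -1.28 ± 0.26, edgeR adjusted p = 0.00146). Ndufaf1 was also lower (-1.14 ± 0.23, edgeR adjusted p = 0.00135), as was Ndufaf4 (-0.80 ± 0.21, edgeR adjusted p = 0.00602). Ndufaf2 stood apart with values that overlapped between tissues, 6.64 and 9.78 CPM in 2KR and WT eWAT against 8.52 and 10.7 CPM in 2KR and WT spleen (log2 fold change -0.22, edgeR adjusted p = 0.646).

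Complex II, succinate dehydrogenase, joins the respiratory chain to the tricarboxylic acid cycle and is encoded wholly in the nucleus. Of its 4 genes 3 were lower, within a narrow range of -0.68 to -0.47. Sdha (chr13:74459703-74487688, mm9), the flavoprotein that oxidises succinate, had 443 CPM in 2KR eWAT and 494 CPM in WT eWAT, against 766 CPM in 2KR spleen and 731 CPM in WT spleen (log2 fold change -0.67 ± 0.23, edgeR adjusted p = 0.0244). Sdhc and Sdhd, the membrane anchors, changed by -0.68 ± 0.20 and -0.65 ± 0.21 (edgeR adjusted p = 0.00986 and 0.0164). Sdhb, the iron-sulfur subunit whose promoter is shown above, had 169 and 248 CPM in 2KR and WT eWAT against 255 and 324 CPM in 2KR and WT spleen. The groups did not overlap but the test was not passed (-0.47, edgeR adjusted p = 0.1).

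Complex III, the cytochrome bc1 complex, had 8 of 9 genes lower and a median of -0.85. Uqcrc1 (chr9:108838661-108851686, mm9), a core protein on the matrix side, had 186 CPM in 2KR eWAT and 248 CPM in WT eWAT, against 360.2 CPM in 2KR spleen and 418 CPM in WT spleen (log2 fold change -0.84 ± 0.23, edgeR adjusted p = 0.00691). Uqcrh, the hinge protein at the cytochrome c1 side, had 66.7 and 87.1 CPM in 2KR and WT eWAT against 133 and 164 CPM in 2KR and WT spleen (-0.94 ± 0.21, edgeR adjusted p = 0.00209). Uqcr10 followed at -0.90 ± 0.21 (edgeR adjusted p = 0.00288), and Uqcrb, another small subunit, was at -0.70 ± 0.22 (edgeR adjusted p = 0.0142). Uqcrfs1, the Rieske iron-sulfur protein, had 111 and 157 CPM in 2KR and WT eWAT against 175 and 191 CPM in 2KR and WT spleen, and did not pass the test (-0.45, edgeR adjusted p = 0.0837).

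Complex IV, cytochrome c oxidase, had 7 of 10 nuclear subunit genes lower and a median of -0.65. Cox5a (chr9:57369039-57380233, mm9) had 74.9 CPM in 2KR eWAT and 104 CPM in WT eWAT, against 117 CPM in 2KR spleen and 164 CPM in WT spleen (log2 fold change -0.65 ± 0.22, edgeR adjusted p = 0.0231). Cox7b, with 48.0 and 61.3 CPM in 2KR and WT eWAT against 89.8 and 112 CPM in 2KR and WT spleen, changed by -0.88 ± 0.20 (edgeR adjusted p = 0.003). Among the subunits with tissue-specific copies, the forms found in most tissues carried the reads. Cox4i1 was lower in eWAT (-0.72 ± 0.25, edgeR adjusted p = 0.024), as was Cox7a2 (-0.76 ± 0.21, edgeR adjusted p = 0.00813). Cox6a1 and Cox8a did not pass (-0.38 and -0.46, edgeR adjusted p = 0.161 and 0.0712), though Cox8a passed with genotype as a block (edgeR adjusted p = 0.0442).

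The read minimum left out 9 names. Ndufs5, a complex I subunit, had 0 reads in all 4 libraries and was listed at or near 0 FPKM. The others were tissue-restricted copies or paralogs with low counts. Cox4i2, the hypoxia-responsive copy of Cox4i1, had 19 and 22 reads in 2KR and WT eWAT, against 1 and 0 reads in 2KR and WT spleen. Ndufa4l2, a paralog of Ndufa4, had 25 and 17 reads in 2KR and WT eWAT and 0 in both spleen libraries. Cox6b2, a testis form, had 22 and 17 reads in 2KR and WT eWAT against 5 and 1 in 2KR and WT spleen. These 3 genes reached the test through their eWAT reads alone, so a call in them could only be a higher one, and their reads are given without it. Cox7a1, a heart and muscle form, lay just outside the read minimum with 10, 4, 5 and 6 reads in the order 2KR eWAT, WT eWAT, 2KR spleen and WT spleen, and Atp5g2 just inside with 12, 13, 6 and 10. Cox6a2, Cox7b2, Cox8b and Cox8c had at most 14 reads in any library.

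Complex V, ATP synthase, had 11 of 15 genes lower and a median of -0.73. Atp5b (chr10:127520363-127527444, mm9), the catalytic beta subunit, with the highest FPKM of the 82 genes, had 1044 CPM in 2KR eWAT and 1170 CPM in WT eWAT, against 1731 CPM in 2KR spleen and 1832 CPM in WT spleen (log2 fold change -0.68 ± 0.27, edgeR adjusted p = 0.0408). The call was lost with genotype as a block (-0.69, edgeR adjusted p = 0.0646) and with limma on FPKM (adjusted p = 0.0585). Of the 5 subunits of the F1 head and central stalk 4 were lower, with Atp5e at -0.90 ± 0.24 (edgeR adjusted p = 0.00585), and all 4 genes of the peripheral stalk group were lower (median -0.73). The membrane c ring can be made from 3 genes that encode the same mature protein. Atp5g3 had 168 and 204 CPM in 2KR and WT eWAT against 317 and 403 CPM in 2KR and WT spleen (-0.95 ± 0.22, edgeR adjusted p = 0.00319). Atp5g1 had 32.5 and 27.5 CPM in 2KR and WT eWAT against 45.8 and 55.4 CPM in 2KR and WT spleen (-0.75 ± 0.21, edgeR adjusted p = 0.00808).

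Atp5g2, the remaining c ring gene, was the only gene of the 82 with a positive log2 fold change, and its counts and FPKM disagreed. It had 12 reads in 2KR eWAT and 13 in WT eWAT, against 6 in 2KR spleen and 10 in WT spleen (log2 fold change 1.04 ± 0.77, edgeR adjusted p = 0.253). The authors' FPKM for it was 101 in 2KR eWAT and 120.0 in WT eWAT, against 201 in 2KR spleen and 251 in WT spleen. On log2(FPKM + 1) it was lower by limma (-1.02, adjusted p = 0.0048), in the direction of Atp5g1 and Atp5g3. Its reads, scaled per kilobase and per 1e+06 reads, came to a median of 0.981% of the FPKM.

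The 4 associated names are not subunits of the mature complexes. Cox7a2l, a factor that joins complexes III and IV into supercomplexes, had 55.0 and 55.1 CPM in 2KR and WT eWAT, against 124 and 133 CPM in 2KR and WT spleen. Its log2 fold change of -1.22 ± 0.19 (edgeR adjusted p = 0.000182) was as large as that of Ndufa4. Atp5sl, Atp5s and Cox4nb make up the rest, and Cox4nb, now known as a subunit of the endoplasmic reticulum membrane complex, changed by -0.55 ± 0.19 (edgeR adjusted p = 0.0249).

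**Figure D2:**
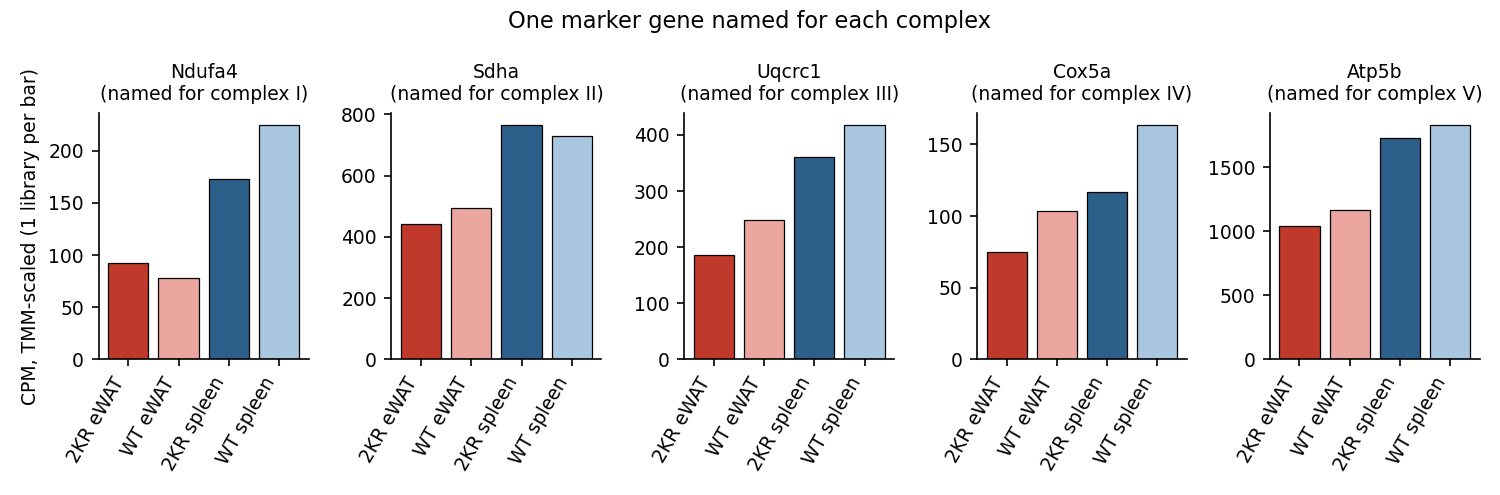
Bars give TMM-scaled CPM of 1 gene named for each complex in each library (Ndufa4 is named for complex I but is now known as a subunit of complex IV), in the order 2KR eWAT, WT eWAT, 2KR spleen and WT spleen. In all 5 genes both eWAT bars are below both spleen bars; for Ndufa4 the 2KR eWAT bar (92.2 CPM) is above the WT eWAT bar (78.5 CPM).

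The difference between 2KR and WT was smaller than that between tissues and leaned to lower values in 2KR. When edgeR tested 2KR against WT with tissue as a term, 79 of 82 genes had a log2 fold change below 0 (median -0.33), against 57.8% of all genes tested. All 61 OXPHOS genes at a mean of 50 CPM or more were below 0, against 70.7% of genes at that level. With total counts in place of TMM 67 of 82 were below 0 and the median was -0.19. Of the 82 genes 0 passed the adjusted threshold, against 0.0667% of all genes tested that were lower. At an unadjusted p under 0.05, 22 genes were lower and 0 higher, against 3.43% of all tested genes that were lower. Of the 61 OXPHOS genes at a mean of 50 CPM or more 19 were lower by that measure, against 6.39% of all genes at that level. DESeq2 also called 0, with 2 lower at an unadjusted p under 0.05. The fit had 1 residual degree of freedom. Ndufa13, an accessory subunit of complex I, stood lowest at -0.62 ± 0.19 (edgeR adjusted p = 0.679). Atp5e followed at -0.55 ± 0.18 (edgeR adjusted p = 0.727). By complex, 14 of the 36 complex I genes, 4 of the 10 complex IV genes and 0 of the 9 complex III genes were lower at an unadjusted p under 0.05, and differences between complexes were not tested.

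Within eWAT, with 1 library per genotype and so no test, 74 of 82 genes were lower in 2KR and the median log2 ratio was -0.35. Of all genes with 5 CPM in at least 1 library 56.2% were below 0, and of those at a mean of 50 CPM or more 76.1% were, where 59 of 61 OXPHOS genes were below 0. At a log2 ratio of -0.5 or lower stood 21 OXPHOS genes, against 14.4% of all genes. Of the 61 OXPHOS genes at a mean of 50 CPM or more 18 stood there, against 17.9% of all genes at that level, and of the 37 short ones 14, against 32.8% of 241 other short genes. At 0.5 or higher stood 0 OXPHOS genes, against 17.2% of all genes. Ndufa13 had 66.3 CPM in 2KR eWAT and 117 CPM in WT eWAT, a log2 ratio of -0.82 with a counting interval of -0.96 to -0.68. Ndufb5, an accessory subunit, had 53.4 and 87.1 CPM in 2KR and WT eWAT (-0.70, -0.86 to -0.55), and Ndufaf3 had 12.8 and 20.9 CPM (-0.70, -1.04 to -0.39). The eWAT ratios depend on the scaling. With total counts in place of TMM the median ratio was -0.094 and 1 gene was at -0.5 or lower, while the median of all genes moved up by 0.26. The authors' FPKM gave -0.12. Markers of several cell types moved with these ratios. These marker ratios used TMM and depend on the scaling too. All 6 T cell and Treg markers were lower in 2KR eWAT than in WT eWAT (median log2 ratio -0.37). Among them Cd4 was near 0 at -0.045, with a counting interval of -0.11 to 0.017. All 7 fibroblast markers were lower too (-1.11). All 6 dendritic cell markers (0.87) and all 5 B cell markers (0.72) had ratios above 0. Among the B cell markers Pax5, with 15 and 16 reads in 2KR and WT eWAT, had no clear direction (0.068, counting interval -1.04 to 1.19). The B cell markers summed to 138 CPM in 2KR eWAT and 81.0 CPM in WT eWAT. Mast cell markers summed to 56.3 CPM in 2KR eWAT and 3.14 CPM in WT eWAT. The part of these cells in the OXPHOS ratios was not tested.

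Within spleen, 75 of 82 genes were lower in 2KR and the median log2 ratio was -0.32, against 58.9% of all genes below 0 and 51.3% of those at a mean of 50 CPM or more. Of the 61 OXPHOS genes at that level 59 were below 0. At -0.5 or lower stood 5 genes, against 13.7% of all genes, and 0 stood at 0.5 or higher, against 4.18% of all genes. Of the 61 OXPHOS genes at a mean of 50 CPM or more 1 was at -0.5 or lower, against 1.12% of all genes at that level, and of the 37 short ones 1, against 5.39% of the other short genes, so these shares are near the background. Total counts gave a median of -0.29 and FPKM -0.30, so the spleen value did not turn on the scaling as the eWAT value did. Cell type markers differed in spleen too. Below 0 in 2KR over WT spleen were 5 of 6 T cell and Treg markers (median log2 ratio -0.14) and 7 of 8 macrophage markers (-0.77). So were 5 of 6 dendritic cell (-0.61), 4 of 5 B cell (-0.26), 6 of 7 fibroblast (-0.82) and 0 of 4 endothelial markers (0.24). The part of these cells in the spleen ratios was not tested. Atp5e, the epsilon subunit of the F1 head, had 73.8 CPM in 2KR spleen and 111 CPM in WT spleen, a log2 ratio of -0.59 with a counting interval of -0.71 to -0.48. Ndufa12 had 25.2 and 37.4 CPM in 2KR and WT spleen (-0.56, -0.77 to -0.37), and Ndufb2 had 31.0 and 45.1 CPM (-0.54, -0.72 to -0.36). Of the 82 genes 68 were below 0 in both tissues.

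**Figure D3:**
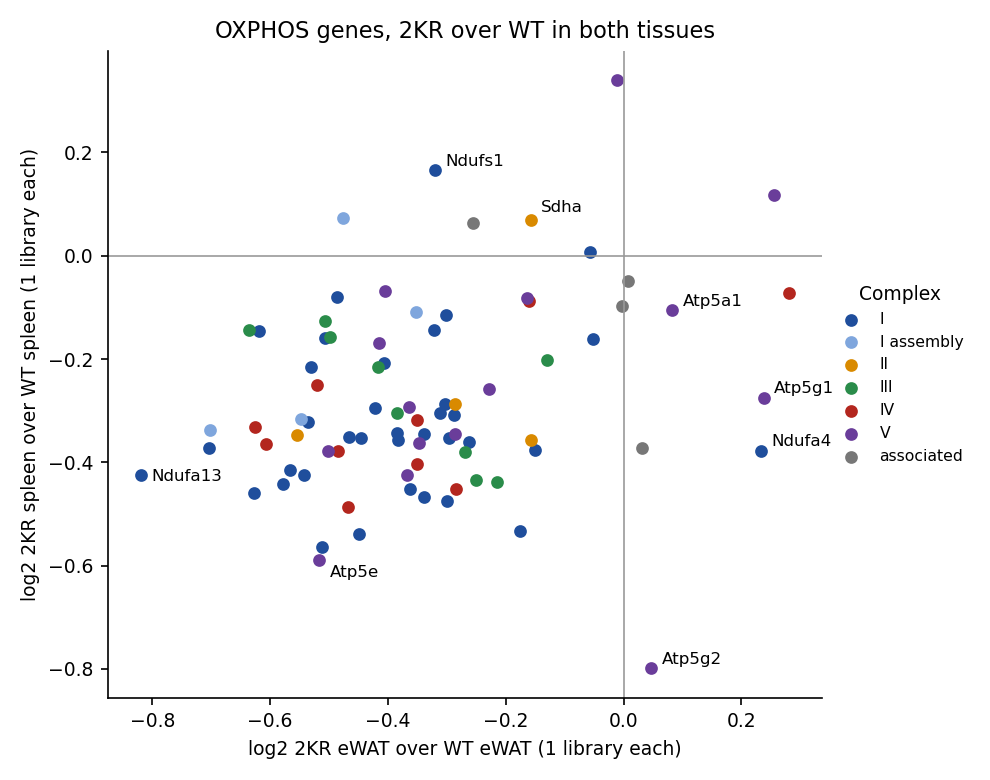
Each point is an OXPHOS gene, with its log2 ratio of 2KR over WT in eWAT on the x axis and in spleen on the y axis (TMM-scaled, 1 library each), coloured by complex. Of 82 genes 68 lie in the lower left quadrant; Ndufa4, Atp5g1 and Atp5a1 lie to the lower right and Ndufs1 and Sdha to the upper left.

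In spleen the ratio went with transcript length. The shorter the longest transcript, the lower was 2KR: the 31 genes under 600 bases had a median log2 ratio of -0.38, the 21 from 600 to under 1000 bases -0.35, the 15 from 1000 to under 1500 bases -0.29 and the 15 of 1500 bases or more -0.11. Across the 82 genes Spearman's rho was 0.45 and Pearson's r 0.38, given as a description over genes of 2 libraries that share their depth and preparation. Across 4758 other genes at a mean of 50 CPM or more it was 0.50 and 0.40, so the relation was not limited to OXPHOS genes. In eWAT rho was 0.053 among OXPHOS genes and 0.27 among the others. Short genes at a mean of 50 CPM or more without OXPHOS genes had a median ratio of -0.24 in spleen and -0.41 in eWAT. The part of length in the genotype ratios was not tested. For eWAT over spleen rho with length was 0.091 among OXPHOS genes.

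**Figure D4:**
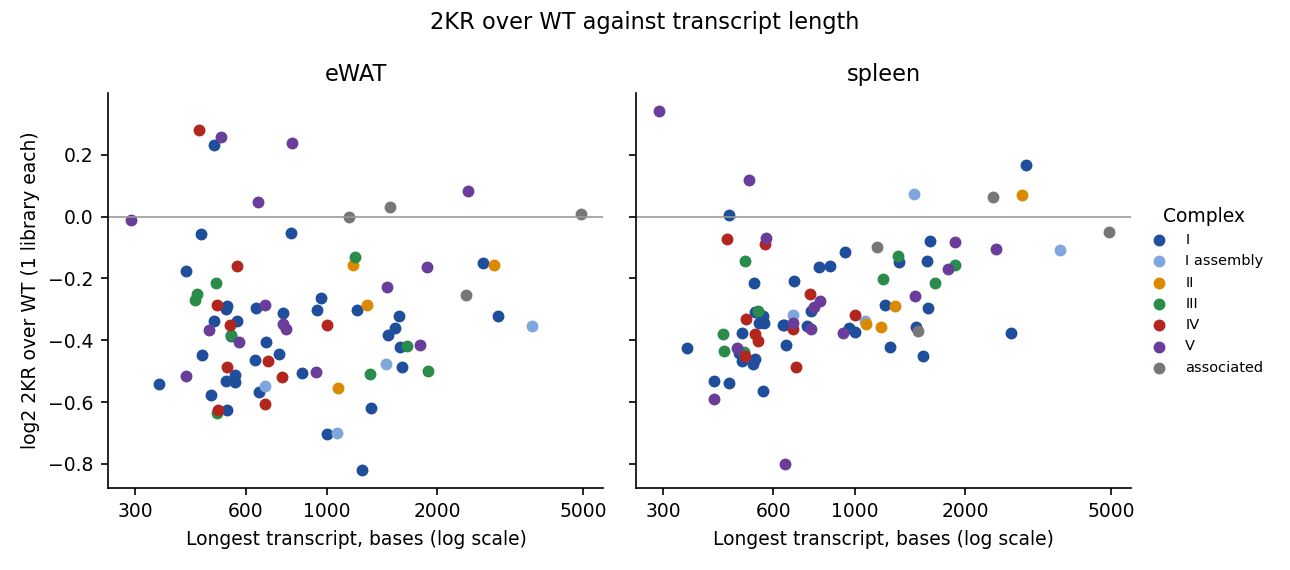
The x axes give the longest transcript of each OXPHOS gene in bases on a log scale, and the y axes its log2 ratio of 2KR over WT in eWAT (left) and in spleen (right), 1 library each. In spleen the points climb with length (Spearman's rho 0.45), and in eWAT they do not (0.053).

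Counts and FPKM disagreed for a few genes, which matters for their levels. For 14 of 82 genes the reads scaled per kilobase and per 1e+06 reads were under 50% of the authors' FPKM and for 5 under 25%. Atp5l, the g subunit of ATP synthase, had 29, 27, 51 and 38 reads in 2KR eWAT, WT eWAT, 2KR spleen and WT spleen, though its FPKM lay between 203 and 289. Its counts per length came to 2.41% of FPKM, those of Cox7c to 15.2%, of Ndufb4 to 22.5% and of Ndufv3 to 24.2%. Of 80 genes whose coding sequence could be compared, 26 had a stretch of at least 100 bases at 96% identity or more in another annotated gene, which for 18 of them was a pseudogene, with 7 such genes for Atp5l and 3 each for Cox7c, Uqcrb and Ndufab1. The 14 genes under 50% had a median of 1 such copy, the 5 under 25% a median of 2, and the genes at 50% or more a median of 0. Not every low percentage went with a copy, as Ndufv3, Atp5k (36.1%), Ndufa3 (42.4%) and Atp5e (49.4%) had 0 such copies. Reads were divided here by the longest transcript of each gene. How the authors' counting treated reads with several hits was not stated. The part of copies and of transcript length in these percentages was not tested, and the counts of these genes are uncertain. The genes that did not pass for tissue include Atp5l (-0.22, edgeR adjusted p = 0.766) and Cox7c (-0.27, edgeR adjusted p = 0.649). On FPKM all 82 genes had a lower mean in eWAT, and limma on log2(FPKM + 1) called 56 lower and 0 higher.

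**Figure D5:**
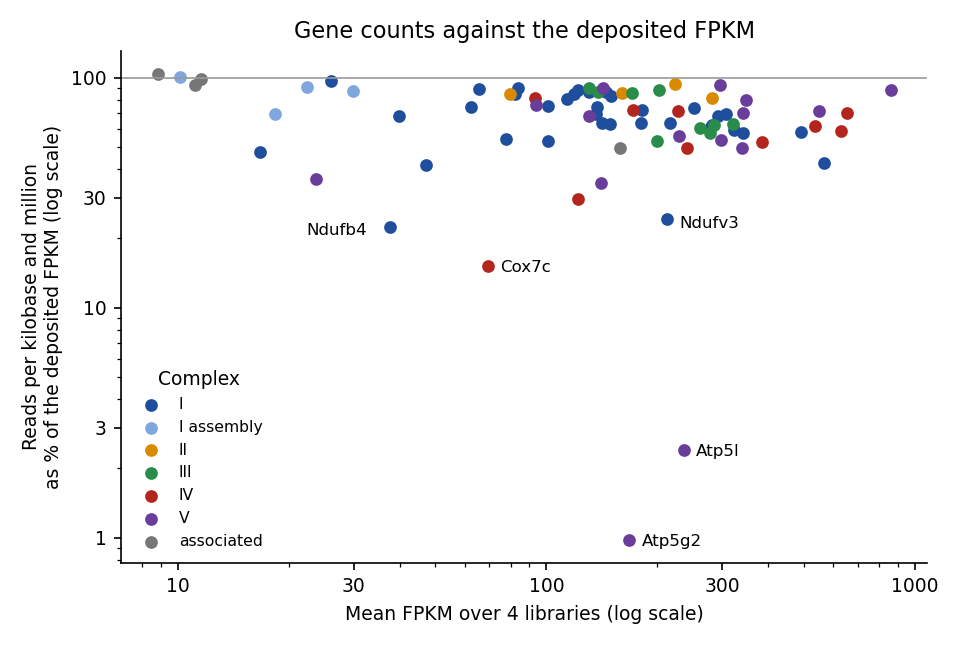
The x axis gives the mean FPKM of each OXPHOS gene over the 4 libraries, and the y axis its length-scaled reads (per kilobase and per 1e+06 reads) as a percentage of FPKM (median of 4 libraries), both on log scales. Most genes lie between 40 and 100%, while Atp5l (2.41%) and Atp5g2 (0.981%) lie far below.

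Genes that serve the chain were compared from lists of other members of the pathway, and their shares are to be read against the 23.2% of all genes tested and the 43.5% of genes at a mean of 50 CPM or more that were lower. Of 25 other assembly factors tested, 14 were lower in eWAT (56.0%), 0 higher and 11 did not pass (median -0.53). Sdhaf1, which inserts iron-sulfur clusters into Sdhb, had 23.4 and 28.5 CPM in 2KR and WT eWAT against 124 and 146 CPM in 2KR and WT spleen, a log2 fold change of -2.37 ± 0.21 (edgeR adjusted p = 1.23e-06). That is larger than the change of any subunit gene. Tmem126b, a complex I assembly factor, changed by -1.46 ± 0.24, Bcs1l, which inserts the Rieske protein into complex III, by -1.26 ± 0.30, and Tmem70, an ATP synthase assembly factor, by -1.24 ± 0.20 (edgeR adjusted p = 0.000305, 0.00391 and 0.000349).

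Among 15 genes of electron carriers and coenzyme Q synthesis 4 were lower (26.7%, near the share of all genes), 1 higher and 10 did not pass (median -0.48). The exception was Coq10b, a coenzyme Q-binding protein, with 321 CPM in 2KR eWAT and 437 CPM in WT eWAT, against 36.5 CPM in 2KR spleen and 37.0 CPM in WT spleen (log2 fold change 3.37 ± 0.23, edgeR adjusted p = 1.4e-07). Coq9, Coq6 and Coq5, which act in coenzyme Q synthesis, were lower (-0.66, -0.66 and -0.64). Of 16 tricarboxylic acid cycle and pyruvate dehydrogenase genes 5 were lower (31.2%), 0 higher and 11 did not pass, and the median of -0.41 was that of all genes at a mean of 50 CPM or more, with Suclg1 at -0.94 ± 0.20, Mdh2 at -0.87 ± 0.23 and Cs at -0.50 ± 0.20 among the lower. With genotype as a block Cs did not pass (edgeR adjusted p = 0.0532). Among 7 carriers, inhibitor and uncoupling genes 2 were lower (28.6%), 2 higher and 3 did not pass (median -0.19). Slc25a4, an ADP/ATP carrier, was lower (-0.93 ± 0.21, edgeR adjusted p = 0.00276). Slc25a5, an ADP/ATP carrier at higher levels, did not pass (-0.57, edgeR adjusted p = 0.0553). It had 451 and 516 CPM in 2KR and WT eWAT against 650 and 787 CPM in 2KR and WT spleen. Slc25a3, the phosphate carrier, did not pass either (0.51, edgeR adjusted p = 0.0669). Ucp2, a mitochondrial carrier abundant in lymphocytes, was lower (-0.73 ± 0.28, edgeR adjusted p = 0.0374). Ucp2 had 786 and 1045 CPM in 2KR and WT eWAT against 1322 and 1713 CPM in 2KR and WT spleen. The 2 higher genes, Ucp1, the uncoupling protein of brown fat, and Ucp3, reached the test through their eWAT reads alone, and a low gene of that kind could only be called higher. Ucp1 had 39 and 17 reads in 2KR and WT eWAT against 3 and 2 reads in 2KR and WT spleen, and Ucp3 had 35 and 31 against 2 and 4.

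Genes for the upkeep and transcription of mitochondrial DNA were mostly lower in eWAT. Of 9 genes tested 7 were lower (77.8%), 1 higher and 1 did not pass (median -0.75). Polrmt, the mitochondrial RNA polymerase, had 20.9 and 33.8 CPM in 2KR and WT eWAT, against 86.6 and 74.9 CPM in 2KR and WT spleen (log2 fold change -1.56 ± 0.23, edgeR adjusted p = 0.000165). Tfam, the packaging and transcription factor of mitochondrial DNA, had 57.4 and 60.6 CPM in 2KR and WT eWAT against 122 and 127 CPM in 2KR and WT spleen (-1.07 ± 0.18, edgeR adjusted p = 0.00046). Polg2, the accessory subunit of the mitochondrial DNA polymerase, was higher (1.23 ± 0.22, edgeR adjusted p = 0.000628). Of 10 regulators of nuclear OXPHOS genes 2 were lower (20.0%, below the share of all genes), 1 higher and 7 did not pass (median -0.40). Myc was lower, with 84.8 and 141 CPM in 2KR and WT eWAT against 195 and 234 CPM in 2KR and WT spleen (-0.92 ± 0.24, edgeR adjusted p = 0.00557), as was Pprc1, a relative of the coactivator PGC-1 (-0.79 ± 0.22, edgeR adjusted p = 0.00761). Ppargc1a, which encodes PGC-1 alpha, was higher from low levels, with 10.4 and 4.52 CPM in 2KR and WT eWAT against 1.11 and 2.42 CPM in 2KR and WT spleen (2.08 ± 0.62, edgeR adjusted p = 0.0112). Factors of the 3 promoter motifs did not pass, with Nrf1 at -0.34, Gabpa at -0.031 and Yy1 at -0.21 (edgeR adjusted p = 0.13, 0.905 and 0.376). The median tissue change of the OXPHOS genes was -0.73 with and -0.74 without the NRF1 letters in the promoter. It was -0.81 and -0.74 for the ETS letters, and -0.81 and -0.73 for the YY1 letters. Called lower were 6 of 11 genes with and 46 of 58 without the NRF1 letters. These counts were 11 of 17 and 41 of 52 for the ETS letters, and 10 of 11 and 42 of 58 for the YY1 letters. A link of motif and tissue change was not tested.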

How the data were processed

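Per the deposited readme, poly-A selected libraries were read at 100 bases, aligned to mm9 with Tophat 2.1.0 (4 mismatches, up to 10 hits) after bcl2fastq 1.8.4, and the authors made FPKM per gene with Cufflinks 2.0.2. The labels name mm8 too. The deposited gene counts are whole reads per symbol. No source used here names the counting tool or its use of strand. CPM used total counts and TMM factors of 1.159 (2KR eWAT), 0.968 (WT eWAT), 0.953 (2KR spleen) and 0.934 (WT spleen).

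R 4.3.3 with edgeR 4.0.16 tested 16488 genes past its filter, tissue alone (coefficient of variation 0.221) and genotype with a tissue term (0.234). Alternatives used DESeq2 1.42.0, limma 3.58.1 on log2(FPKM + 1), and other scalings. Ratios of single libraries used a prior of 2 reads and exact binomial 95% intervals. Other steps used Python 3.11.15. The tests were tried on simulated data.

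The 82 genes, lists and naming rule were chosen with earlier results of these data known. Named were the markers, extremes of each complex and of each genotype contrast, gene families, and up to 4 genes of each list. Ndufa3, Ndufs8, Ndufv1, Atp5sl, Atp5s, Ndufb4, Ndufab1, Uqcr11, Atp5j, Atp5k, Foxp3, Cd3d, Cd3e, Cd4, Ctla4, Ucp1, Ucp3, Nrf1, Gabpa and Yy1 were named for their roles or after their values were seen. The same holds for the other cell type markers named singly. The short-gene background was also added after seeing the data.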

Additional observations from a re-analysis of the deposited data

Results flagged for a closer look

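There were 5 OXPHOS genes that had ratios of 2KR over WT that pointed opposite ways in eWAT and spleen, each with a counting interval that left out 0, and the difference between tissues was not tested. For Ndufa4 the log2 ratio was 0.23 in eWAT and -0.38 in spleen, a difference of 0.61. For Atp5g1 it was 0.24 in eWAT and -0.27 in spleen, a difference of 0.51. For Atp5a1, the alpha subunit of ATP synthase, it was 0.083 in eWAT and -0.11 in spleen, a difference of 0.19. The opposite order held for Ndufs1, the largest core subunit of complex I, at -0.32 in eWAT and 0.17 in spleen (difference -0.49), and for Sdha at -0.16 in eWAT and 0.069 in spleen (difference -0.23). On log2(FPKM + 1) the Sdha ratio was 0.12 in eWAT and 0.10 in spleen, so its opposite directions were not seen there. For Ndufs1 the FPKM ratio was -0.050 in eWAT, near 0, and 0.19 in spleen. Ndufa4 (0.53 in eWAT and -0.35 in spleen), Atp5g1 (0.25 and -0.36) and Atp5a1 (0.36 and -0.075) kept opposite directions on FPKM. The eWAT ratios rest on the scaling as given above, and each value rests on 1 library.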

How the results depend on the processing

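Of the 82 OXPHOS genes the number called lower in eWAT by edgeR was 65, and leaving out 1 library at a time gave 10 to 74, with the lone library of a tissue assumed to vary like the others. It was 64 with DESeq2, 66 with genotype as a block, 56 with limma on FPKM, 68 with no filter and 60 with total count scaling, and 0 were higher in each. Atp5g2 reversed, with -1.02 by limma on FPKM (adjusted p = 0.0048) and 1.04 by edgeR on counts. The median complex I change was -0.79 for genes with 100 reads in each library. With total count scaling the complex medians were -0.59 (I), -0.50 (II), -0.69 (III), -0.49 (IV) and -0.57 (V). With the authors' FPKM they were -0.63 (I), -0.47 (II), -0.67 (III), -0.50 (IV) and -0.56 (V).

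For 2KR over WT in eWAT the median log2 ratio was -0.094 with total count scaling, -0.31 with DESeq2 size factors and -0.12 with FPKM, and genes at -0.5 or lower numbered 1, 13 and 1. Genes at 0.5 or higher numbered 2 with total count scaling and 1 with FPKM. In spleen the median was -0.29 with total count scaling, -0.29 with DESeq2 size factors and -0.30 with FPKM. Genotype calls in both tissues together stayed at 0 under DESeq2, no filter and total count scaling, with 2, 18 and 10 lower at an unadjusted p under 0.05. FPKM summed over transcripts gave the same median levels. No paired analysis was possible because the labels give no replicate numbers, so libraries were matched by genotype alone, in the fit with genotype as a block that gave 66. Depth limits genes with few reads such as Atp5g2 and Atp5l, whose counting intervals for 2KR over WT span 0 in both tissues.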
